A study of Mus musculus with 57 samples.

Results

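The genes followed were Myc and its partner Max, the Ras genes Hras and Nras, and the feedback genes Dusp6, Spry2 and Spred1. The Ras GTPase-activating protein genes Rasa1 and Rasa4 were followed too, all in single cells sorted as tumour cells from mouse bone. They are 9 of the 12887 features of the table of all cells, spike-ins left out, and all 9 passed the filter of a value above 0 in at least 6 cells. They were chosen because RM1, a mouse prostate carcinoma line, was transformed with ras and myc. The list was chosen by measured values too, those of these genes by state and by level of the tumour label eCFP in the same table, so their differences are given with their errors and without a test.

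The study labelled RM1 cells that carry the fluorescent protein eCFP and the luciferase Luc2 with PKH26, a membrane dye that is diluted as cells divide, and gave them to C57BL/6 mice by injection into the heart. Bone metastases were sorted into single cells on days 13 to 26. Cells that kept the dye are the dormant group, with 28 cells from 6 mice, and cells without it are the proliferating group, with 29 cells from 6 mice. Mice 360, 369, 452 and 1185 gave cells of both states, mice 244 and 1184 gave dormant cells only, and mice 268 and 288 gave proliferating cells only. Mice 244 and 288 gave 1 cell each. By their labels all cells descend from 1 line given by the same route of injection, and the groups differ only by retention of the dye. The values of some dormant libraries, given below, went against that descent. Each cell was a library of its own, with 945351 to 5306777 recovered reads and 2399 to 10509 features above 0. Values are normalised reads per gene and cell. The mouse was the replicate, and the unit compared was the average of log2(value + 1) among all cells that a mouse gave in a state. Libraries were made in batches of 1 state each, so library batch and state cannot be told apart.

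Of the libraries, 6 went against their label as RM1 cells. In 6 of the 28 dormant cells eCFP was under 100 normalised reads, with a median of 2.47 and a highest value of 87.6, against 349 to 5256 in the other 22 dormant cells and 327 to 3229.7 in the proliferating cells. These 6 are called low-label cells here and the other 22 labelled dormant cells. Luc2 reached at most 230.5 in the low-label cells and was at least 1849.8 in every labelled cell. Of 18 pan-leukocyte genes, 10 to 18 were above 0 in each low-label cell, with a median of 16.5. The myeloid gene Lyz2 ranged from 52145.5 through a median of 168437 to 188632 normalised reads in them. In labelled dormant cells its median was 7.19 and its highest value 95205, and in proliferating cells these were 4.18 and 1251. The summed level of 3 epithelial genes had a median of 4.19 in low-label cells, against 5306 in labelled dormant and 3564 in proliferating cells. The low-label cells were the only dormant cell of mouse 244, both of mouse 360, 2 of 6 in mouse 369 and 1 of 5 in mouse 1184. Leukocyte transcripts were also counted in labelled cells. Cells with at least 5 of the 18 genes above 0, called leukocyte-rich below, were 11 of the 22 labelled dormant cells and 12 of the 29 proliferating cells. Arhgdib, which is in that list, was above 0 in 57 of 57 cells, whereas Ptprc, which encodes the common leukocyte antigen CD45, was above 0 in 4 of 22 labelled dormant, 3 of 29 proliferating and 5 of 6 low-label cells. State differences are therefore given with and without the low-label cells.

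Ras proteins are small GTPases that pass growth signals from receptors to the RAF, MEK and ERK kinases when GTP is bound. GTPase-activating proteins such as those encoded by Rasa1 and Rasa4 return Ras to its inactive form, and ERK activity induces its own inhibitors, among them the ERK phosphatase DUSP6 and the SPRY and SPRED proteins that act upstream at the level of Ras and RAF. MYC binds DNA as a dimer with MAX at the motif CACGTG, drives ribosome production and the cell cycle, and is stabilised by ERK signalling.

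The table names no introduced ras or myc, and eCFP and Luc2 are its only added features, so reads of an introduced copy cannot be told apart from those of the cells' own gene. The GENCODE vM21 transcripts of GRCm38 show how far reads can separate Hras from Nras. Over their 570 coding bases Hras and Nras were identical at 428, or 75.09%, and their longest shared run was 23 bases, so their transcripts differ within every stretch longer than that. Hras lies at chr7:141189105-141194005 on the minus strand and Nras at chr3:103058285-103067914 on the plus strand of GRCm38, and no exon base of either gene overlaps another gene.

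Promoters of 8 of the 9 genes were matched in the RefSeq table for GRCm38.p6, which holds 250 bases before and 50 after each gene's start. The MYC and MAX motif CACGTG, which reads the same on both strands, occurred in 1 of the 8, that of Nras, in 6.021% of all promoters and in 8.315% of those of genes in the table. CCGGAA, the core bound by ETS factors, which are nuclear targets of ERK, was searched on both strands together with its reverse complement TTCCGG. It occurred in 2 of the 8, those of Hras and Rasa1, in 12.03% of all promoters and in 21.97% of those of genes in the table. The last 60 bases before the RefSeq start are shown for the gene with each motif nearest its start, in the gene's direction and with the motif in capitals. The first is chr3:103058225-103058284 on the plus strand and the second chr13:85289487-85289546 on the minus strand.
Nras: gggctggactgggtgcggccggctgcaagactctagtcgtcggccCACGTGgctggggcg
Rasa1: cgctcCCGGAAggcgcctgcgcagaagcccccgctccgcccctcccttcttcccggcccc
The motif begins 15 bases before the start in Nras and 55 in Rasa1. A match describes these letters and is not a measured binding site.

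Set side by side per kilobase of exon, Nras, Dusp6 and Hras were the most abundant of the 9 genes in the 51 labelled cells, and Rasa4, Max and Spry2 the least. Over the 10 means of a mouse and state, the level was 108 ± 31.6 normalised reads per kilobase for Nras, 105 ± 23.0 for Dusp6 and 93.6 ± 25.6 for Hras (SD, n = 10). These 3 neighbours differ by less than their spread. The 10 means come from 7 mice, of which 3 gave labelled cells of both states, so they are not all independent and the SD is a description. Myc at 45.9 ± 37.3, Rasa1 at 44.6 ± 26.4 and Spred1 at 43.3 ± 35.7 came next, and their order is also within the spread. Rasa4 had 10.8 ± 15.4, Max 5.89 ± 4.62 and Spry2 5.66 ± 4.50 normalised reads per kilobase, and these do not differ beyond their spread either. The plot of levels per kilobase shows that the means of single mice overlap between genes high and low in this order: those of Spred1 reached 136 and those of Myc 106, above the lowest of Nras and Hras, 58.9 and 60.1.

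**Figure D1:**
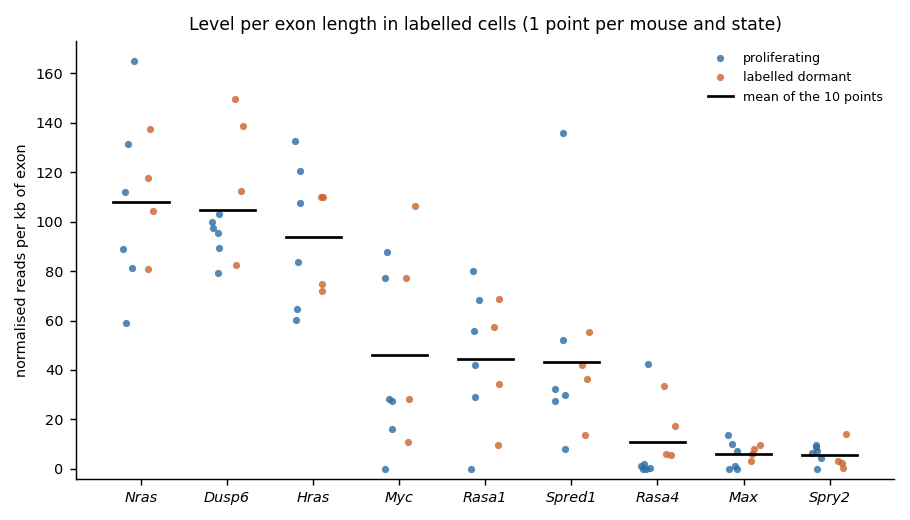
Normalised reads per kilobase of exon for the 9 genes in labelled cells. Each point is the mean over the cells of 1 mouse and state, with 6 proliferating and 4 labelled dormant points, and the bar is the mean of the 10 points; Nras, Dusp6 and Hras lie highest, from 58.9 to 165, and Max and Spry2 lowest, from 0 to 14.1.

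Across all genes, no state difference passed the test. limma called 0 of 11843 genes at a Benjamini-Hochberg adjusted p under 0.05 (0.0%), and the smallest of its adjusted p values was 0.437. Before adjustment 389 genes with higher and 737 with lower means in dormant cells were under 0.05. edgeR on recovered reads called 0, and 665 and 118 genes passed without adjustment. DESeq2 on the same reads called 302 genes, 2.77% of those it gave an adjusted p, of which 294 were higher in dormant cells, and none of the 9 genes was among them. Without the low-label cells limma again called 0 (0.0%), of 11595 genes, where 168 higher and 59 lower ones passed without adjustment, and DESeq2 called 14 (0.138%), again none of the 9. Of the 9 genes, 4 had a dormant minus proliferating difference below 0, where 63.1% of all genes did. Without the low-label cells 2 of 9 did, against 45.5% of all genes, and the median difference of all genes moved from −0.35 to 0.09. Without leukocyte-rich cells 2 of 9 did, against 26.9% of all genes, and limma called 0 of 10539 (0.0%), with 322 higher and 16 lower ones before adjustment.

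The Ras genes were present in nearly every labelled cell of both states. Hras was above 0 in 29 of 29 proliferating and 22 of 22 labelled dormant cells, and the exact 95% binomial interval for the latter reaches down to 84.6%, for counting error only. Its level ranged from 18.7 through a median of 328 to 1095 normalised reads in proliferating cells, and from 91.6 through 291 to 872 in labelled dormant cells. The ranges overlap almost completely. In the low-label cells Hras was listed at 0 in both cells of mouse 369, and was 85.9 in mouse 244, 105 and 349 in mouse 360 and 776 in mouse 1184.

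The mouse means of Hras reflected those cells. On the log2 scale the 6 dormant means ran from 5.75 through a median of 7.74 to 8.45 and the 6 proliferating means from 7.19 through 8.26 to 8.90, a difference of −0.82 (SE 0.79). The lowest dormant mean was that of mouse 369. Without the low-label cells the dormant means were 8.62 in mouse 369, 8.45 in mouse 452, 7.90 in mouse 1184 and 7.88 in mouse 1185, and the difference was 0.01 (SE 0.73). Within the 3 mice with labelled cells of both states it was 0.42 (SE 0.75), with mouse 1185 below 0 and mice 369 and 452 above.

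Nras, which had the highest mean level per kilobase of the 9 genes, was above 0 in 28 of 29 proliferating and 21 of 22 labelled dormant cells. It ranged from 0 through a median of 525 to 909.9 in proliferating cells and from 0 through 563 to 1342 in labelled dormant cells, again with near-complete overlap. The highest value of all cells was in a low-label cell: Nras was 2268 and 418 in mouse 369, 415 and 2.3 in mouse 360, 30.1 in mouse 244 and 0 in mouse 1184. The dormant mouse means ran from 4.96 through 7.06 to 9.39 and the proliferating means from 6.42 through 9.01 to 9.78, a difference of −1.77 (SE 0.90). Without the low-label cells the difference was −0.44 (SE 0.82), and within the 3 shared mice −0.13 (SE 0.75). On summed reads without low-label cells it was 0.07 with DESeq2 (SE 0.51) and 0.11 with edgeR. The mouse means of both states were lowest in mouse 452 once low-label cells were left out, at 6.71 for dormant and 6.42 for proliferating cells.

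**Figure D2:**
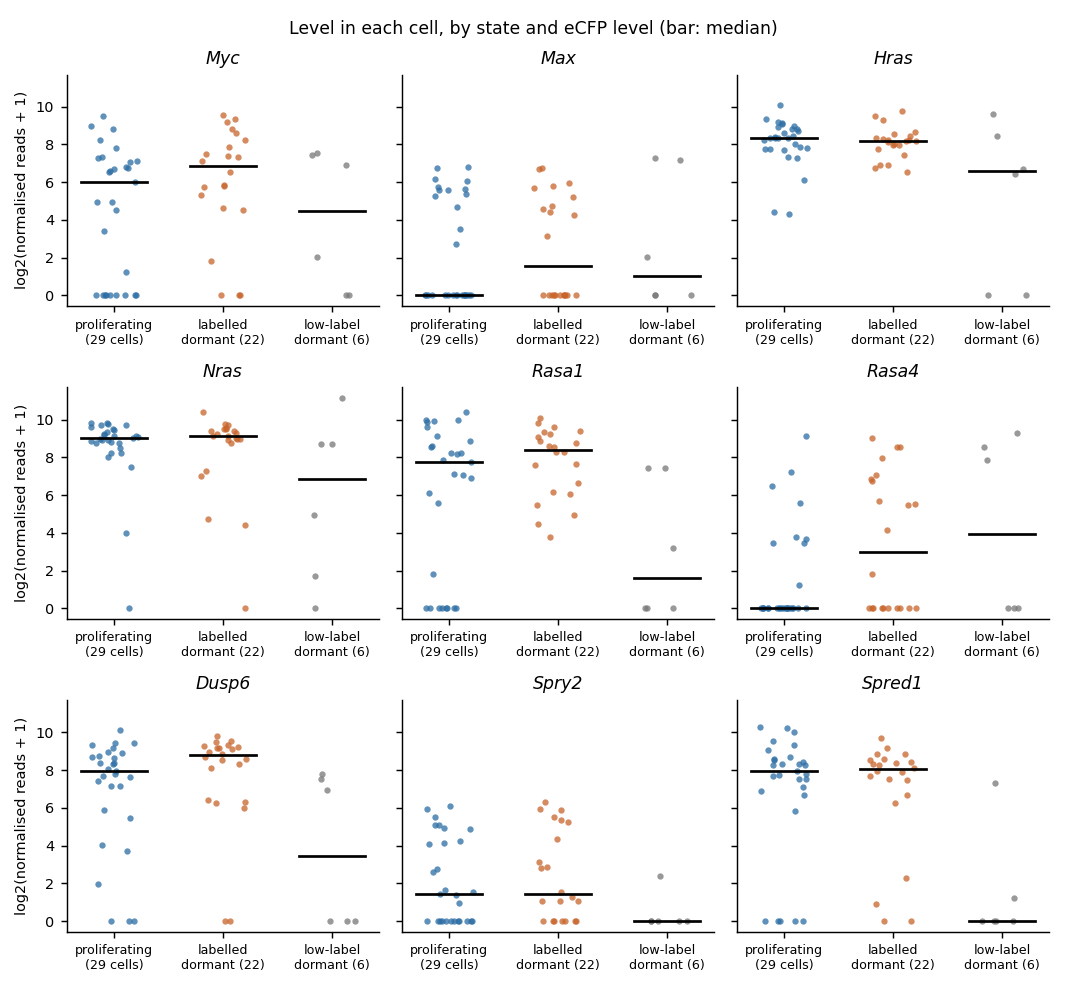
Level of the 9 genes in each cell, as log2(normalised reads + 1), for 29 proliferating, 22 labelled dormant and 6 low-label dormant cells; the bar is the median and each point 1 cell. Proliferating and labelled dormant cells overlap in all 9 genes, and Spred1 and Spry2 have a median of 0 in low-label cells.

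Both genes for Ras GTPase-activating proteins were more often above 0 in labelled dormant than in proliferating cells, and they differed in how leukocyte transcripts moved with them. Rasa1, which encodes p120 RasGAP, was above 0 in 22 of 22 labelled dormant cells and 21 of 29 proliferating cells. The exact 95% binomial intervals for these shares, which cover counting error only and not the spread between mice, were 84.6% to 100% and 52.8% to 87.3%. The counts were the same after every cell was thinned to 945351 reads. Of the 8 proliferating cells at 0, the single cell of mouse 288 was 1. Rasa1 ranged from 12.9 through 341 to 1088 in labelled dormant cells and from 0 through 214 to 1354 in proliferating cells. The ranges overlap, and the highest value was in a proliferating cell.

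In the low-label cells Rasa1 was 174 in mouse 1184, 170.4 in 1 cell of mouse 360, 8.07 in 1 cell of mouse 369 and 0 in the other 3. The dormant mouse means were 8.62 in mouse 1185, 8.54 in mouse 1184, 6.42 in mouse 452 and 5.61 in mouse 369 without these cells, and the proliferating means ran from 0 in mouse 288 through a median of 5.80 to 7.12. The difference was 2.39 (SE 1.36) without low-label cells and 0.32 (SE 1.48) with them. On reads summed per mouse and state, without low-label cells, it was −0.02 with DESeq2 (SE 1.02) and −0.05 with edgeR. Over all cells it was −0.88 on the log2 of the mean over cells and −0.67 without the single cell of mouse 288. Within the 3 shared mice it was 1.10 (SE 1.06), with mouse 369 at −1.18 and mice 1185 and 452 at 2.01 and 2.48. The 11 leukocyte-poor labelled dormant cells had a higher median, 547, than the 11 leukocyte-rich ones, 196, and every cell of both kinds was above 0. Rasa1 lies at chr13:85214780-85289130 on the minus strand in GENCODE, and the RefSeq start used for its promoter lies upstream of that boundary.

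Rasa4, whose product is recruited to the plasma membrane by calcium, was above 0 in 12 of 22 labelled dormant, 9 of 29 proliferating and 3 of 6 low-label cells. It reached at least 100 normalised reads in 7 labelled dormant, 2 proliferating and 3 low-label cells. After thinning to equal reads it was above 0 in 11 labelled dormant and 7 proliferating cells. Among cells above 0 the median was 111 in labelled dormant cells and 12.7 in proliferating cells. The low-label values were 370.0 and 626 in mouse 360, 233 in 1 cell of mouse 369 and 0 in the other 3 cells. Rasa4 lies at chr5:136083916-136111860 on the plus strand of GRCm38, and 3.527% of its exon bases overlap Gm15701 and Mir7035.

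Rasa4 was the only 1 of the 9 genes that was higher in dormant cells in every shared mouse. Without low-label cells the dormant and proliferating means were 4.23 and 0.93 in mouse 452, 3.19 and 1.39 in mouse 369, and 2.51 and 0 in mouse 1185. In mouse 360, whose dormant cells are both low-label, they were 8.91 and 1.55. The difference was 2.05 (SE 1.44) over all mice, 2.06 (SE 1.39) without low-label cells, 3.81 (SE 1.17) within the 4 shared mice and 2.54 (SE 0.83) within the 3 with labelled cells. On reads summed per mouse and state it was smaller, at 1.24 with DESeq2 (SE 1.63) and 1.26 with edgeR over all cells. Without low-label cells these were 0.64 (SE 1.69) and 0.72. The highest proliferating mean, 7.80, was that of mouse 268, whose 2 cells had 549 and 88.7 normalised reads, and without that mouse the difference was 3.22. Without mouse 360 it was 0.99.

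Leukocyte transcripts moved with Rasa4. It was above 0 in 8 of 11 leukocyte-rich and 4 of 11 leukocyte-poor labelled dormant cells, and in 5 of 12 leukocyte-rich and 4 of 17 leukocyte-poor proliferating cells. Over the 51 labelled cells its Spearman correlation with the number of pan-leukocyte genes above 0 was 0.35, the highest of the 9 genes. With the number of all features above 0 it was 0.37. Without leukocyte-rich cells, which leaves 11 dormant cells of 3 mice and 17 proliferating cells of 6 mice, the difference was 0.10 (SE 1.67), where the median of all genes was 0.78. In that choice mouse 452 lost its dormant cells. Mouse 268 was left with its cell of 549 normalised reads, which had the fewest features of all cells, 2399. The summed level of the 18 leukocyte genes ranged from 935 through a median of 1722 to 20594 in labelled dormant cells. In proliferating cells it ranged from 762 through 2132 to 10059. Arhgdib alone had medians of 1405 and 1727 in these cells. The parts of leukocyte RNA and of the number of features in the Rasa4 difference were not tested beyond these values.

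**Figure D3:**
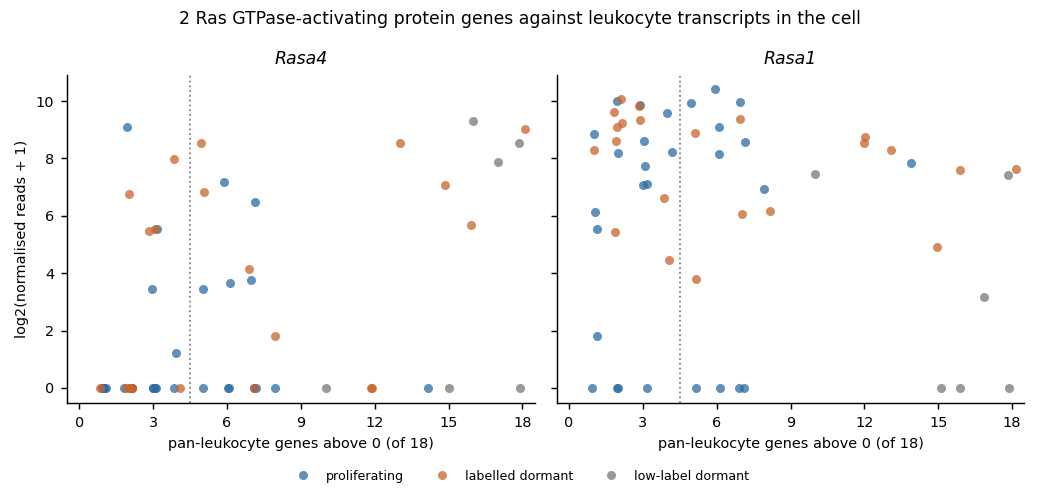
Rasa4 and Rasa1, as log2(normalised reads + 1), against the number of 18 pan-leukocyte genes above 0 in the same cell, spread slightly sideways so that cells do not hide each other. The dotted line separates leukocyte-poor from leukocyte-rich cells; to its left 4 of 11 dormant cells had Rasa4 above 0, and 11 of 11 had Rasa1.

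Among the feedback genes Dusp6 was the most abundant. It encodes a cytoplasmic phosphatase of ERK and was above 0 in 26 of 29 proliferating, 20 of 22 labelled dormant and 3 of 6 low-label cells. It ranged from 0 through a median of 252 to 1107 normalised reads in proliferating cells and from 0 through 444 to 888 in labelled dormant cells. The low-label values were 225 and 122 in mouse 360, 183 in mouse 244 and 0 in the other 3. The dormant mouse means were 8.00 in mouse 1185, 7.95 in mouse 452, 7.51 in mouse 369 and 6.86 in mouse 1184 without low-label cells, and the proliferating means ran from 4.48 through 6.91 to 8.34. These ranges overlap. The difference was 1.05 (SE 1.01) without low-label cells, 0.36 (SE 1.00) with them and 1.41 (SE 0.95) within the 3 shared mice, where mouse 369 was at −0.23. Without leukocyte-rich cells it was 2.79 (SE 1.99). Dusp6 lies at chr10:99263231-99267489 on the plus strand.

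Spred1, which encodes a membrane protein that brings the GTPase-activating protein neurofibromin to Ras, had the lowest difference of the 9 genes over all cells, at −2.10 (SE 1.32). It was above 0 in 24 of 29 proliferating and 20 of 22 labelled dormant cells but in 2 of 6 low-label cells, with 160.1 normalised reads in 1 cell of mouse 360 and a single read in mouse 1184. Labelled dormant cells ranged from 0 through 264 to 826 and proliferating cells from 0 through 252 to 1257. Without low-label cells the difference was 0.02 (SE 1.29), and within the 3 shared mice −0.38 (SE 1.23), with mouse 452 at −3.46, mouse 369 at −0.88 and mouse 1185 at 3.22. The gene lies at chr2:117121374-117182279 on the plus strand. Mice of 1 state differed widely here: the proliferating means ran from 4.12 in mouse 1185 to 9.60 in mouse 360.

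Spry2, a Sprouty protein that is induced by growth factors and blocks receptor signals to Ras, had low values throughout. It never reached 100 normalised reads, with a highest value of 78.4 in labelled dormant, 68.4 in proliferating and 4.30 in low-label cells. It was above 0 in 15 of 22 labelled dormant and 17 of 29 proliferating cells, and in 11 and 13 after thinning to equal reads. The difference was −0.43 (SE 0.88) over all cells, −0.08 (SE 0.92) without low-label cells and −0.26 (SE 0.86) within the 3 shared mice. Spry2 lies at chr14:105891947-105896819 on the minus strand.

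Myc, which encodes the transcription factor introduced in the making of RM1, was listed at 0 in 9 of 29 proliferating and 3 of 22 labelled dormant cells. In proliferating cells it ranged from 0 through 63.0 to 731, and in labelled dormant cells from 0 through 116 to 765. The low-label cells held 184 and 121 in mouse 360, 171 and 3.13 in mouse 369, and 0 in mice 244 and 1184, so they lay within the range of the labelled cells. Without them the dormant means were 7.40 in mouse 1184, 6.57 in mouse 1185, 4.56 in mouse 452 and 3.93 in mouse 369, and the proliferating means ran from 0 in mouse 288 through 3.84 to 7.48 in mouse 452. The difference was 0.89 (SE 1.35) over all cells and 1.76 (SE 1.36) without low-label cells. Within the 3 shared mice it was −0.19 (SE 1.17), with mouse 1185 at 2.25, mouse 369 at 0.12 and mouse 452 at −2.92, so 1 of 3 mice gave the mean its sign. Without the single proliferating cell of mouse 288 the difference over all cells was 0.12. Myc is on the plus strand at chr15:61985391-61990374, and no exon base of it overlaps another gene.

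Max, the obligate dimer partner of MYC, was above 0 in about as many cells of each kind: 13 of 29 proliferating, 11 of 22 labelled dormant and 3 of 6 low-label cells. Its highest value was 109 in proliferating, 106 in labelled dormant and 153 in low-label cells. The difference was 0.98 (SE 1.20) over all cells, 0.69 (SE 1.06) without low-label cells and 0.11 (SE 0.99) within the 3 shared mice. Over all cells the highest dormant mean of Max, 7.20, was the single low-label cell of mouse 244, and without that mouse the difference was 0.13. Max lies at chr12:76937269-76962201 on the minus strand.

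The plot of state differences under several choices of cells summarises these values. Leaving out the low-label cells brought Hras, Nras and Spred1 toward 0, moved Rasa1, Myc and Dusp6 away from 0, and left Rasa4 in place. Leaving out leukocyte-rich cells brought Rasa4 to 0.10, Spred1 to 1.54, Myc to 2.44 (SE 1.85) and Rasa1 to 3.11 (SE 2.16), where the median of all genes was 0.78.

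**Figure D4:**
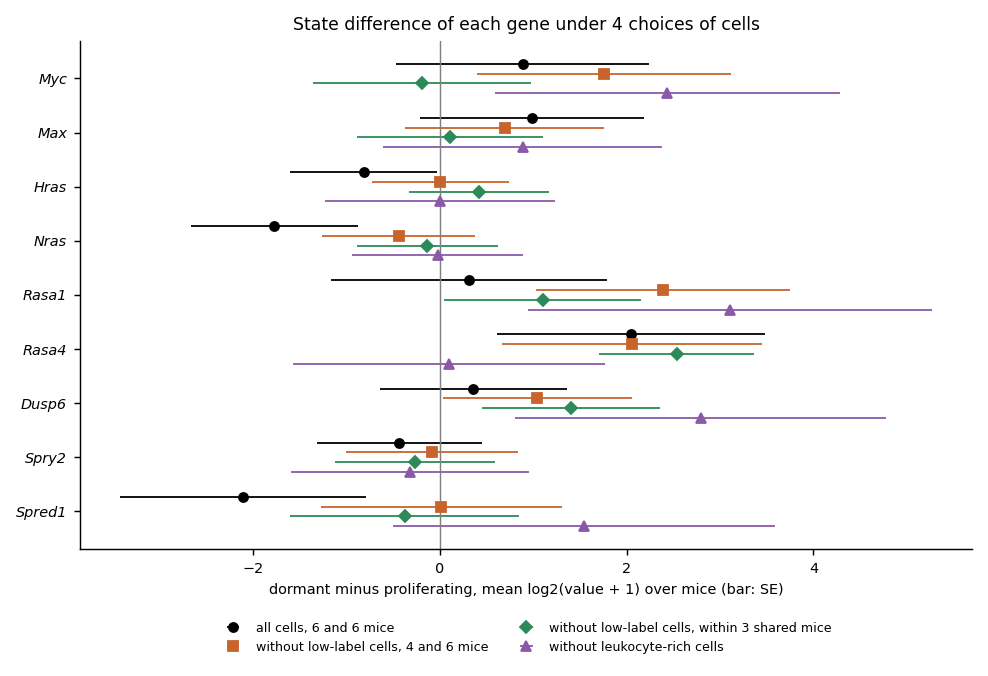
Dormant minus proliferating difference of the mean log2(value + 1) over mice for each of the 9 genes, with SE as bars, for all cells, without low-label cells, without low-label cells within the 3 shared mice, and without leukocyte-rich cells. Rasa4 is between 2.05 and 2.54 in the first 3 and at 0.10 in the last; Nras moves from −1.77 to −0.02.

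The other genes of the pathways were taken from lists of textbook members, and none of them passed limma's test in either direction. DESeq2 over all cells called 2 exchange factor and adaptor genes and 1 partner gene of MYC and MAX, all higher in dormant cells. It called 2.77% of all genes there, and none of the pathway genes without low-label cells. All 9 other small GTPases of the Ras subfamily had differences below 0 over all cells, against 63.1% of all genes. Their median was −0.64 against −0.35 for all genes. With median of ratios scaling 6 of 9 were below 0, against 56.1% of all genes. Without low-label cells 5 of 9 were, against 45.5% of all genes, with a median of −0.03 against 0.09. Rras, a relative of Ras that acts on cell adhesion, had −1.94 (SE 1.10, limma adjusted p = 0.612) over all cells and −1.09 without low-label cells. Rap1a, which controls integrins, had −1.06 (SE 0.75, limma adjusted p = 0.695) and −0.96 without low-label cells. Rras2 moved from −1.98 to 0.84 when low-label cells were left out.

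Of the exchange factors and adaptors that load Ras with GTP, 9 of 12 were tested. Of these 5 had differences below 0, against 63.1% of all genes, with a median of −0.69 against −0.35. Without low-label cells 5 of 8 did, against 45.5% of all genes, with a median of −0.09 against 0.09. Ptpn11, which encodes the phosphatase SHP2 that links receptors to Ras, had −3.30 (SE 1.19, limma adjusted p = 0.443) over all cells, −1.74 without low-label cells and −0.51 without leukocyte-rich cells. The adaptor Gab1 had 1.62, and 1.23 without low-label cells, with 5 of 22 labelled dormant and 3 of 29 proliferating cells above 0. Rasgrp2, an exchange factor of platelets and other blood cells, had 2.34 over all cells and was above 0 in 4 of 6 low-label cells against 2 of 22 labelled dormant cells. It did not pass the filter on low values without low-label cells. Grb2, the adaptor of SOS, had 1.85 over all cells and 0.50 without low-label cells, in which its median was 328 against 27.9 in labelled dormant cells.

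Beside Rasa1 and Rasa4, 5 of 8 other GTPase-activating protein genes were tested. Of these 4 had differences below 0, against 63.1% of all genes, with a median of −0.78 against −0.35. Without low-label cells 3 of 5 did, against 45.5% of all genes, with a median of −0.03 against 0.09. Rasa3, a relative of Rasa4 with an inositol phosphate binding domain, was the exception over all cells at 2.25 (SE 1.41, limma adjusted p = 0.652). It was 1.00 without low-label cells, whose median of 325 lay above that of 116 in labelled dormant and 30.1 in proliferating cells. Rasal2 had −1.54, Dab2ip −1.29 and Rasa2 −0.78 over all cells, and −0.98, −0.62 and −0.03 without low-label cells.

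For the RAF, MEK and ERK kinases and their scaffolds, 6 of 10 tested genes had differences below 0, against 63.1% of all genes. Their median was −0.05 against −0.35. Without low-label cells 4 of 10 were below 0, against 45.5% of all genes, with a median of 0.03 against 0.09. The largest, in Araf, was −2.21 (SE 1.24, limma adjusted p = 0.602) over all cells and −0.35 without low-label cells, 2 of 6 of which had it above 0. Braf had 0.93, Shoc2 −0.90 and Ppp1cb −0.86 over all cells, and all 3 lay between −0.09 and 0.22 without low-label cells.

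Of 16 other feedback and output genes of ERK, 13 had differences below 0 over all cells, against 63.1% of all genes. Their median was −0.82 against −0.35. Without low-label cells 6 of 16 were below 0, against 45.5% of all genes, with a median of 0.33 against 0.09. Ccnd1, which encodes cyclin D1, had −3.76 (SE 1.17, limma adjusted p = 0.437), and −1.08 without low-label cells. Fosl1, which encodes the AP-1 subunit FRA1, had −3.42 (SE 1.20, limma adjusted p = 0.439) over all cells and −0.30 without low-label cells. It was above 0 in 29 of 29 proliferating and 22 of 22 labelled dormant cells, with medians of 755 and 520.2 and a median of 2.00 in low-label cells. The ETS factor gene Etv1 moved from −2.01 to 0.69, and the immediate-early gene Egr1 from 1.70 to −0.16, with a median of 1322 in low-label cells against 57.6 in labelled dormant cells.

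The partners of MYC and MAX were evenly divided, with 7 of 14 tested genes below 0 both over all cells and without low-label cells. Of all genes 63.1% and 45.5% were below 0 in these choices. Mxd1, whose product competes with MYC for MAX in differentiating cells, had 2.69 (SE 1.24, limma adjusted p = 0.498) over all cells and 0.83 without low-label cells, in which its median was 225 against 0 in both other kinds of cell. Mxd3, a family member expressed in dividing cells, had −2.10 and −1.27. The helicase genes Ruvbl1 and Ruvbl2, whose products work with MYC, had −1.63 and −1.67 over all cells and −0.28 and −0.16 without low-label cells.

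Most MYC target genes had lower dormant means over all cells, and without low-label cells the division depended on the fit. Of 32 genes, 31 had differences below 0, against 63.1% of all genes, with a median of −1.09 against −0.35. With median of ratios scaling 26 did, against 56.1% of all genes, with a median of −0.74 against −0.16. Without low-label cells 16 of 32 did, against 45.5% of all genes, with a median of −0.05 against 0.09. Within the 3 shared mice 24 of 32 did, against 56.1% of all genes, with a median of −0.18 against −0.12. With DESeq2 30 of 32 did over all cells and 20 without low-label cells, against 47.7% of all genes in each. Without leukocyte-rich cells 10 of 32 did in limma, against 26.9% of all genes, with a median of 1.05 against 0.78. Mcm7, part of the replicative helicase, had −3.76 (SE 1.00, limma adjusted p = 0.437) over all cells. It had −1.39 without low-label cells and 0.11 without leukocyte-rich cells. Cdk4 had −1.71, the nucleolar genes Npm1 and Ncl −1.68 and −1.89, and all 3 lay between −0.48 and −0.36 without low-label cells. Npm1 was above 0 in every cell, with a median of 8947 in proliferating, 5970.4 in labelled dormant and 864 in low-label cells. The list of 32 and the other lists were written with earlier results of these data known, and their counts describe them beside the background of all genes only.

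**Figure D5:**
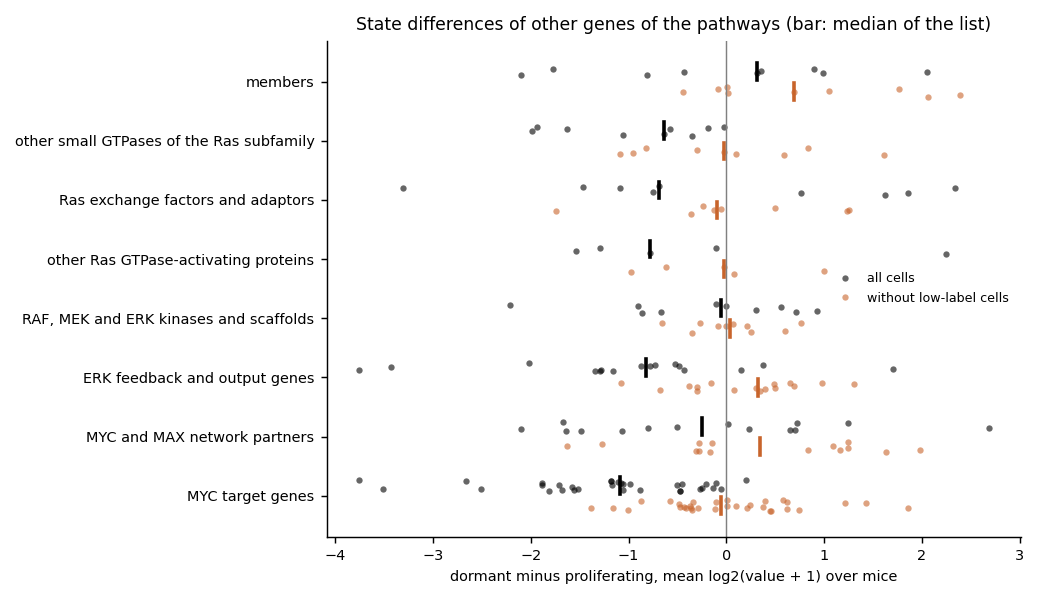
Dormant minus proliferating differences of mean log2(value + 1) for the 9 genes and 7 lists of other pathway genes, over all cells in black and without low-label cells in orange; each point is a gene and each bar the median of its list. The medians of MYC target genes, −1.09 and −0.05, and of ERK feedback and output genes, −0.82 and 0.33, differ most between the choices.

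Across the 51 labelled cells the 9 genes moved together only in part. These correlations are Spearman's, the cells share libraries' depth and 7 mice, and they are given as a description. The highest within the set was 0.55, between Nras and Rasa4, followed by 0.52 between Rasa1 and Spred1 and 0.46 between Rasa1 and Spry2. Nras ranked 6 among 8974 genes by likeness to Rasa4. Hras had values between −0.17 and 0.08 with each of the other 8 genes, and Myc and Max had 0.12. Sequencing depth and complexity moved with several of these genes: Spred1 had 0.55 with the number of features above 0, Max 0.46, and Myc 0.44 with total reads. eCFP had 0.41 with Spred1 and 0.40 with Myc within the labelled cells. Correlations of the 9 genes with the proliferation gene Mki67 ran from −0.26 for Dusp6 to 0.26 for Max, with −0.09 for Myc and 0.23 for Spred1.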

How the data were processed

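Single-cell full-length RNA-seq libraries (SMARTer, Nextera XT, spike-ins) were analysed from 57 cells of 8 mice. Per the series text, the authors normalised with BASiCS; the submitters' processing notes name STAR, RSEM, GRCm38 and mm10, without version or role. The deposited values are a signal, normalised reads per gene and cell. Within each cell 100% of gene values were whole multiples of 1 step (tolerance 0.01), so whole reads were recovered. A second deposited table, of the 4 shared mice, was not used.

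Means of log2(value + 1) per mouse and state were compared with limma 3.58.1 (trend, robust) over features above 0 in at least 6 cells, with Benjamini-Hochberg adjustment at 0.05. Values of 0 enter the mean, so the number of cells at 0 is part of each difference, and the scale understates changes of low genes. edgeR 4.0.16 and DESeq2 1.42.0 on sums of the recovered reads by mouse and state were alternatives, as were other pseudocounts (0.1, 10), filters (1 and 12 cells), scaling, averaging, weights, a block, cells and mice left out, and reads thinned to 945351. Alternatives that combine the removal of low-label cells with a block, a scaling or a count test were chosen after seeing the data. The fit was also run on simulated data, 5 sets with 200 genes changed 4-fold. Whole cells were redrawn across mice and states there. These sets therefore do not keep the differences between mice, and they do not measure the power of the real fit. Pairing comes from the labels, since both states came from 1 mouse; the paired deviations correlated at −0.007, 0.360, 0.0856 and 0.0137 in mice 360, 369, 452 and 1185. No pair of cells correlated above 0.891. Symbols matched 99.7% of features. Lengths, each the union of all annotated exons of a gene, and positions are from GENCODE vM21.

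The 9 genes, the lists and the eCFP threshold of 100 were chosen with earlier results of these data known. Named pathway genes are up to 4 per list with the smallest unadjusted p. A gene that this rule also names is not reported here.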

Additional observations from a re-analysis of the deposited data

Results flagged for a closer look

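Among 18 groups of 6 mouse means, 1 per gene and state over all cells, 2 held a mouse that stood apart from the others by Dixon's criterion, which chance alone meets in about 1 in 20 groups. The proliferating mean of Nras in mouse 452, over 6 cells, was 6.42 on the log2 scale, below the other 5 mice. The proliferating mean of Rasa4 in mouse 268, over 2 cells, was 7.80, above the other 5 mice.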

How the results depend on the processing

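The count of 0 called genes was also 0 with either other pseudocount, either other filter, median of ratios scaling, log2 of the mean over cells, weights by number of cells, edgeR, and without leukocyte-rich cells or each mouse in turn (range 0 to 0). With the mouse as replicate block it was 0 in the 4 shared mice and 0 in the 3 with labelled cells. DESeq2 called 302 genes, and 14 without low-label cells; the cause was not tested. Of 180 settings of the 9 differences fitted with limma, 5 moved a value by over 1 SD of the mouse means and 21 gave the other sign, 7 of these in Rasa1 and none in Nras or Rasa4. The settings with the other filters (1 and 12 cells) could not move these values, since a filter only chooses which genes are fitted. In DESeq2 and edgeR without low-label cells Nras had the other sign, at 0.07 and 0.11. Median of ratios scaling moved the median difference of all genes from −0.35 to −0.16 and the share below 0 from 63.1% to 56.1%. Without mouse 360 that median was −0.06. Leaving out mouse 244 took Max from 0.98 to 0.13, Myc to 1.84 and Rasa1 from 0.32 to 1.36; leaving out mouse 288 took Rasa1 to −0.67 and Myc to 0.12; leaving out mouse 360 took Max to 1.95, Rasa4 from 2.05 to 0.99 and Spry2 from −0.43 to 0.14; leaving out mouse 1185 took Dusp6 from 0.36 to −0.21 and Spred1 to −3.17. Thinning to equal reads took Spry2 from 15 and 17 labelled dormant and proliferating cells above 0 to 11 and 13, and Rasa4 from 12 and 9 to 11 and 7; Max stayed at 11 and 13.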

Other observations

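The genes whose values were most like those of the 9 genes over the 51 labelled cells, among 8974 genes above 0 in at least 20 of them, were mostly outside the pathways above. Hras had its 3 highest Spearman correlations with genes of the mitochondrial ribosome, Mrps25 at 0.61, Mrpl12 at 0.59 and Mrpl57 at 0.53, where the median over all genes was 0.01. Myc was most like Sars, a seryl-tRNA synthetase gene, at 0.69, and Max most like Ep300, which encodes the acetyltransferase p300, at 0.67. Spred1 was most like Brd3, Myh9 and Shoc2, all at 0.66, against a median of 0.23 over all genes. Shoc2 encodes a scaffold that brings a phosphatase to RAF. For Rasa1 the leading gene was Wls at 0.69, for Dusp6 Col16a1 at 0.67, for Rasa4 Pcyt1a at 0.62, for Spry2 Ahnak2 at 0.61 and for Nras Med13 at 0.58. The cells share mice and depth, and no test was made.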
